A study of Rattus norvegicus with 6 samples.

Results

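Metabotropic glutamate receptors were followed through 7 of their genes, Grm2, Grm3, Grm4, Grm5, Grm6, Grm7 and Grm8, picked by symbol from the 17066 genes in the deposited expression table. Each gene occurred once, and the 7 symbols were matched to RefSeq names. The neurons were primary hippocampal cultures prepared from Sprague-Dawley rats at embryonic day 18. They were infected with lentivirus at 5 or 6 days in vitro and lysed for RNA at 14 days in vitro. The control virus expressed EGFP, the overexpression virus CCNY-WT-EGFP and the knockdown virus CCNY-shRNA-EGFP, and the question was which transcripts follow the level of Cyclin Y (CCNY), a cyclin that is also found in non-dividing neurons. There were 2 libraries for each of the 3 conditions. The knockdown rests on 1 shRNA virus, the control carried EGFP alone, with no non-targeting shRNA named, and nothing says whether the 2 libraries of a condition came from separate cultures, so that p-values measure only the spread between these libraries.

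Metabotropic glutamate receptors are G protein-coupled receptors that sense glutamate released at synapses and modulate transmission slowly, unlike the ion channel receptors of the AMPA and NMDA type. Group I receptors, among them the product of Grm5, sit mainly around the postsynaptic density and act through Gq proteins and phospholipase C. Group II (Grm2 and Grm3) and group III (Grm4, Grm6, Grm7 and Grm8) receptors couple to Gi/o proteins, lower adenylyl cyclase activity and act largely at presynaptic terminals, where they restrain release.

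Ccny, the targeted gene, was at 43.1 and 42.3 FPKM (sequenced fragments scaled to transcript length and to the mapped fragments of the library) with EGFP, 108 and 109 with CCNY-WT, and 5.98 and 6.19 with CCNY-shRNA. The libraries therefore matched their labels, although transcripts of the viral insert and of the endogenous gene cannot be told apart. The table holds no read counts. From the steps between the values of weakly expressed genes, the depth of the other libraries relative to EGFP replicate 1 was estimated at 0.818 to 1.33, and between 9955 and 10002 genes had an FPKM of 1 or more in each library. The summed FPKM of 11 neuron markers lay between 5223 and 5395 in the 6 libraries. The other cell types of such cultures were also seen, with the 8 astrocyte markers measured summing to 311 to 404 FPKM and 10 oligodendrocyte lineage markers to 47.5 to 57.7. Of 10 microglia markers, 9 stayed below an FPKM of 1 throughout, and Aif1 and Cx3cr1 were listed at 0.

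Grm5 and Grm7 were the prominent transcripts among the 7 receptor genes in the bulk RNA of these cultures. In EGFP, Grm5 had an FPKM of 69.6 and 71.0, a mean of 70.3 ± 1.03 (SD, n = 2), and Grm7, which encodes a receptor of the presynaptic active zone with low affinity for glutamate, had 67.7 and 72.8, a mean of 70.3 ± 3.64. By their EGFP means they ranked 1612 and 1615 among the 17066 genes. Their EGFP ranges overlapped, and Grm5 was the higher of the pair in 3 of 6 libraries, so their order was not resolved. Together they made up 91.0% to 92.3% of the summed FPKM of the 7 genes in every library, and the ratio of the Grm7 level to the Grm5 level stayed between 0.973 and 1.09.

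The other receptor genes were far lower in this per-length unit, Grm4 by 8.92-fold against Grm7 in the EGFP means and the rest by more. Grm4, a presynaptic group III receptor, followed with a mean EGFP level of 7.87 ± 0.101 FPKM (SD), and Grm3, a group II receptor that astrocytes also express, with 2.64 ± 0.262, each with n = 2. Grm8, another presynaptic group III receptor, was at 1.28 and 1.71 FPKM in the EGFP libraries. Grm2, the presynaptic group II receptor known from dentate granule cells, and Grm6, the receptor best known from ON bipolar cells of the retina, were lowest, at 0.856 ± 0.0269 and 0.843 ± 0.0568 FPKM. The EGFP ranges of neighbours in this order did not overlap from Grm7 down to Grm2, whereas those of Grm2 and Grm6 did. Grm4 lay above Grm3 and Grm3 above Grm8 in 6 of 6 libraries, and Grm8 above Grm2 in 5.

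**Figure D1:**
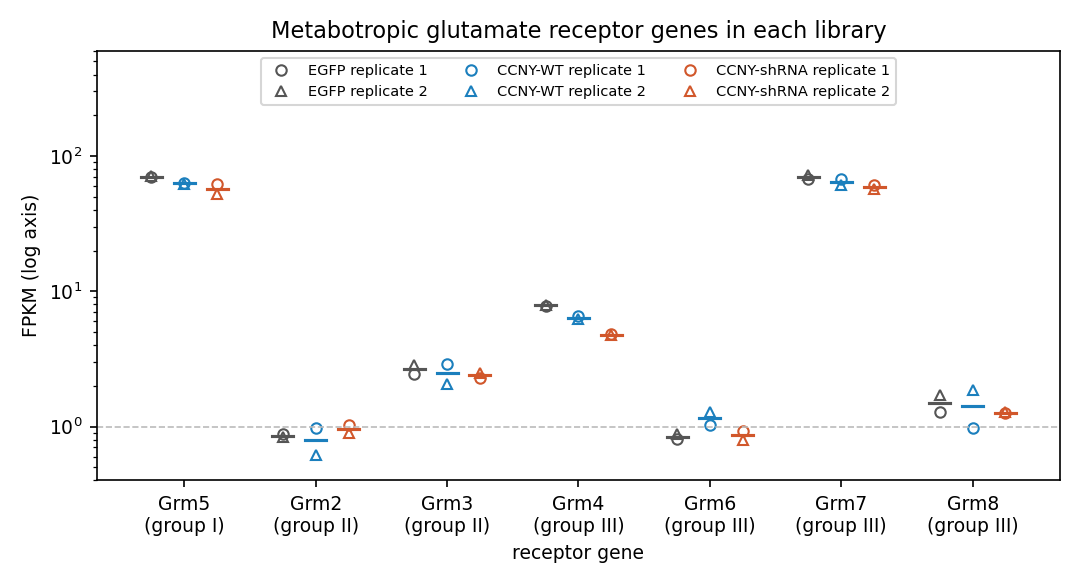
FPKM (log axis) of the 7 receptor genes, with circles for replicate 1, triangles for replicate 2, a short line for the mean of each condition and a dashed line at an FPKM of 1. Grm5 and Grm7 lie between 52.6 and 72.8 in every library, Grm4 between 4.71 and 7.94, and the other genes between 0.611 and 2.92.

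For tests, FPKM values under 1 were raised to 1, log2 was taken, and differences were fitted with limma over all 6 libraries for the 10188 genes that reached an FPKM of 1 in no fewer than 2 libraries. Of the 7 receptor genes 6 were tested. Grm2 reached an FPKM of 1 in only 1 library and was left out. Grm6 passed the filter only through the CCNY-WT libraries, where it was high, so that a difference there was built into its selection.

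Knockdown of Cyclin Y went with lower levels of the most abundant receptor genes, most of all Grm4, but in limma's test 0 of the 6 tested receptor genes passed an adjusted p of 0.05 in CCNY-shRNA against EGFP. Over all tested genes 0.746% passed. At an unadjusted p under 0.05, 3 of the 6 were lower (Grm4, Grm5 and Grm7) and 0 higher, where 9.36% of all tested genes were lower and 9.2% higher at that level. The median log2 change of the 6 was -0.23 and that of all tested genes 0.00. The 5 tested receptor genes other than Grm6 were below 0, against 49.8% of all tested genes. Grm6 lay under the floor in both conditions, so its change of 0.00, which entered that median, was fixed.

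Grm4 was at 7.80 and 7.94 FPKM with EGFP, 6.54 and 6.25 with CCNY-WT, and 4.80 and 4.71 with CCNY-shRNA. The 3 conditions did not overlap, and CCNY-shRNA was the lowest, with a mean of 60.4% of the EGFP mean. Such gaps were common. Of all tested genes, 24.5% were lower without overlap in CCNY-shRNA than in EGFP. For CCNY-WT below EGFP the share was 19.2%, and for CCNY-shRNA below CCNY-WT 21.9%. The share of genes with all 3 conditions apart was not counted. The log2 change in CCNY-shRNA was -0.73 (standard error 0.129, 95% confidence interval -1.03 to -0.43), lower in 4 of 4 pairings of libraries, with a limma adjusted p of 0.0550, just beyond the threshold. The adjusted p was 0.0476 with a filter on mean FPKM and 0.0497 with log2(FPKM + 0.1) in place of the floor, both under the threshold, and lay between 0.0502 and 0.343 under the other 14 alternatives. Leaving out 1 library at a time gave log2 changes of -0.74 to -0.71, with adjusted p-values of 0.105 to 0.343. Grm4, like the kinase gene Prkca, also stands in a list of learning or memory genes that the study drew from these libraries, which is not independent evidence of its direction.

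Grm5 was at 69.6 and 71.0 FPKM with EGFP, 63.6 and 62.6 with CCNY-WT, and 61.9 and 52.6 with CCNY-shRNA. EGFP was the highest condition and no condition overlapped another, but the CCNY-shRNA libraries lay farther apart than the EGFP and CCNY-WT means. The shares of all tested genes given for Grm4 apply to this lack of overlap too. The log2 change in CCNY-shRNA was -0.30 (standard error 0.0796, 95% confidence interval -0.48 to -0.12, limma adjusted p = 0.117). With CCNY-shRNA replicate 2 left out it was -0.18, and with CCNY-shRNA replicate 1 left out -0.42.

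Grm7 was at 67.7 and 72.8 FPKM with EGFP, 67.4 and 61.3 with CCNY-WT, and 61.2 and 57.3 with CCNY-shRNA. The conditions again did not overlap, with CCNY-WT between the others, although the nearest libraries of EGFP and CCNY-WT, and of CCNY-WT and CCNY-shRNA, lay close together. Lack of overlap in these directions was common among all tested genes, by the shares given for Grm4. The log2 change in CCNY-shRNA was -0.25 (standard error 0.0719, 95% confidence interval -0.41 to -0.08, limma adjusted p = 0.140).

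**Figure D2:**
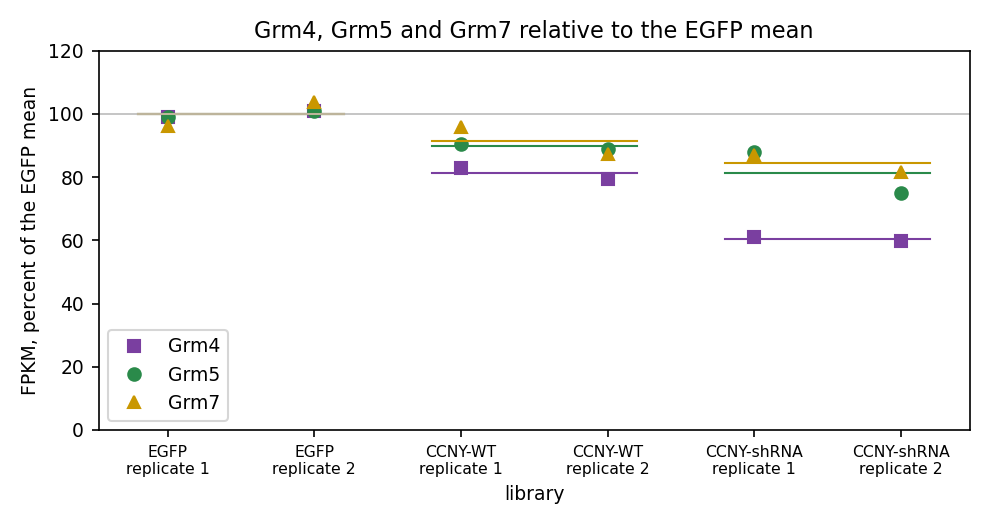
FPKM of Grm4 (squares), Grm5 (circles) and Grm7 (triangles) in each library as a percent of that gene's mean in EGFP, with a line at the mean of each condition. In CCNY-shRNA the means were 60.4% for Grm4, 81.4% for Grm5 and 84.3% for Grm7, and in CCNY-WT 81.2%, 89.8% and 91.6%.

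The weak receptor genes gave no resolved change in CCNY-shRNA. Grm3 was at 2.46 and 2.83 FPKM with EGFP, 2.92 and 2.07 with CCNY-WT, and 2.30 and 2.50 with CCNY-shRNA, and all conditions overlapped. Its log2 change in CCNY-shRNA was -0.14, with a 95% confidence interval of -0.64 to 0.37 (limma adjusted p = 0.787). Grm8 was at 1.28 and 1.71 FPKM with EGFP, 0.969 and 1.86 with CCNY-WT, and 1.26 and 1.28 with CCNY-shRNA. The CCNY-WT libraries spanned those of the other conditions, and its log2 change in CCNY-shRNA was -0.22, with an interval of -0.95 to 0.51 (limma adjusted p = 0.758). These intervals hold changes as large as that of Grm4 for Grm8, and nearly so for Grm3.

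Grm6 was at 0.803 and 0.883 FPKM with EGFP, 1.03 and 1.29 with CCNY-WT, and 0.932 and 0.801 with CCNY-shRNA. Only the CCNY-WT libraries lay above the floor, so its log2 change after flooring was 0.20 in CCNY-WT (95% confidence interval -0.31 to 0.72, limma adjusted p = 0.896) and 0.00 in CCNY-shRNA. Without the floor, on the log2(FPKM + 1) scale, these changes were 0.23 and 0.02, and on the log2(FPKM + 0.1) scale 0.41 and 0.03. The change in CCNY-WT was 0.37 without CCNY-WT replicate 1 and 0.04 without CCNY-WT replicate 2. Grm2 was at 0.875 and 0.837 FPKM with EGFP, 0.975 and 0.611 with CCNY-WT, and 1.02 and 0.891 with CCNY-shRNA, and was not tested. Its CCNY-WT libraries differed 1.59-fold from each other, more than the condition means did.

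Overexpression of Cyclin Y was not accompanied by a resolved change of any receptor gene. In CCNY-WT against EGFP, 0 of the 6 passed limma's adjusted threshold, and 0.00982% of all tested genes did, which was Ccny alone. At an unadjusted p under 0.05, 1 of the 6, Grm4, was lower, against 3.0% of all tested genes. It stayed under that level in 7 of 16 alternatives and in 0 of the 6 that left out a library. The log2 change of Grm4 was -0.30 (standard error 0.129, 95% confidence interval -0.60 to -0.00, limma adjusted p = 0.729). That of Grm5 was -0.16 (interval -0.34 to 0.03) and that of Grm7 -0.13 (interval -0.29 to 0.04), with adjusted p-values of 0.761 and 0.782. Grm4, Grm5 and Grm7 were lower in CCNY-WT than in EGFP without overlap, which held for 19.2% of all tested genes. Grm6 was higher without overlap, which its filter fixed, as were 20.3% of all tested genes. The log2 change was below 0 in the 5 genes other than Grm6, whose direction its filter fixed, against 48.7% of all tested genes. For Grm3 and Grm8 the replicates of CCNY-WT differed 1.41-fold and 1.92-fold, and the log2 changes were -0.10 and -0.12 (limma adjusted p = 0.952 and 0.966). Both turned positive without EGFP replicate 2, to 0.00 and 0.09. Grm3 was also above 0 without CCNY-WT replicate 2, at 0.15, and Grm8 without CCNY-WT replicate 1, at 0.33.

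Between the manipulated conditions directly, 0 of 6 receptor genes passed limma's adjusted threshold, against 0.216% of all tested genes. Grm4 was the only receptor gene under an unadjusted p of 0.05, against 7.12% of all tested genes that were lower at that level. Its log2 difference between CCNY-shRNA and CCNY-WT was -0.43 (standard error 0.129, 95% confidence interval -0.73 to -0.13, limma adjusted p = 0.276). Those of Grm5 and Grm7 were -0.15 and -0.12, with intervals of -0.33 to 0.04 and -0.28 to 0.05. Leaving out 1 library moved them to between -0.26 and -0.03, with CCNY-shRNA replicates 1 and 2 left out at the ends, and to between -0.19 and -0.05, with CCNY-WT replicates 2 and 1 left out at the ends. Grm4, Grm5 and Grm7 were lower in CCNY-shRNA than in CCNY-WT without overlap, as were 21.9% of all tested genes, and the same order of Grm6 was fixed by the filter. Against EGFP the same held in CCNY-shRNA for Grm4, Grm5, Grm7 and Grm8 and for 24.5% of all tested genes. The log2 differences of the 5 genes other than Grm6 were below 0, against 49.5% of all tested genes, and the sign of Grm3 and Grm8 changed with the library left out. CCNY-WT and CCNY-shRNA were both set against the same EGFP libraries, so their changes from EGFP are not independent of each other.

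**Figure D3:**
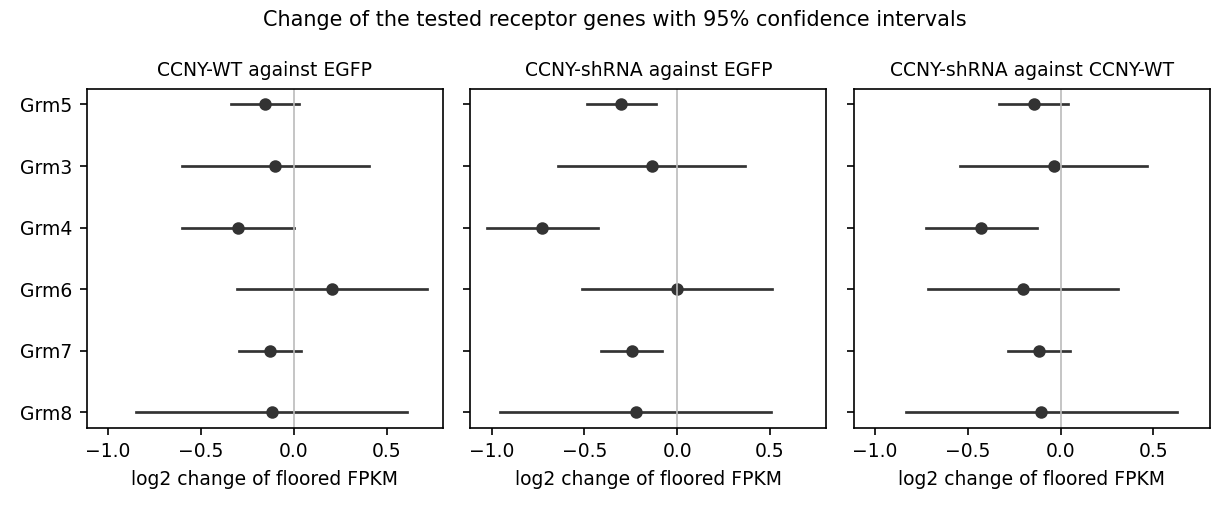
Log2 change of floored FPKM (horizontal axis) of the 6 tested receptor genes, as points with 95% confidence intervals from limma, for CCNY-WT against EGFP, CCNY-shRNA against EGFP and CCNY-shRNA against CCNY-WT. The interval of Grm4 in CCNY-shRNA against EGFP runs from -1.03 to -0.43, and those of Grm3, Grm6 and Grm8 cross 0 in every comparison.

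Size limits like those of the study, a change in mean log2FPKM of 0.3 (CCNY-WT) or 0.33 (CCNY-shRNA), were also applied to the floored values here, with no test and without repeating the study's own selection. Grm4 was the 1 of the 7 receptor genes beyond the lower limit in each condition, in CCNY-WT only at the limit itself (-0.30), and 0 were beyond the upper limit. Of all 17066 genes, 2.31% were beyond the lower limit in CCNY-WT and 4.58% in CCNY-shRNA. With log2(FPKM + 1) or log2(FPKM + 0.1) in place of the floor, Grm4 passed in CCNY-shRNA alone.

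The composition of the receptor set shifted little. Grm4 made up 5.19% and 5.03% of the summed FPKM of the 7 genes with EGFP, 4.56% and 4.60% with CCNY-WT, and 3.60% and 3.92% with CCNY-shRNA, so its share followed the same order as its level, without overlap. The share of Grm5 lay between 43.8% and 46.4% and that of Grm7 between 45.0% and 47.7%, with overlap between all conditions. The sum itself was 150 and 158 FPKM with EGFP, 143 and 136 with CCNY-WT, and 133 and 120 with CCNY-shRNA. With 2 libraries a condition an exact two-sided permutation test cannot give a p below 0.333, so the shares and sums were not tested.

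Markers of other cells were set beside these results. The interneuron marker sum, over 9 genes, was 2242 and 2352 FPKM with EGFP, 2260 and 2280 with CCNY-WT, and 1935 and 2102 with CCNY-shRNA. Of the 8 interneuron markers tested, 4 were lower in CCNY-shRNA at an unadjusted p under 0.05 and 0 higher, against 9.36% and 9.2% of all tested genes. Of these 4, Gad2, which encodes a GABA-synthesizing enzyme, fell past the adjusted threshold (log2 change -0.41, standard error 0.0494, limma adjusted p = 0.0226). In either direction 0.746% of all tested genes passed that threshold. Gad2 was named after its values were seen, and its call was lost in 9 of 16 alternatives, among them each of the 6 that left out a library (limma adjusted p of 0.0767 to 0.316). Gad1, the other GABA-synthesizing enzyme, had a log2 change of -0.03 and Calb2, a calcium-binding protein of some interneurons, of 0.06 (limma adjusted p = 0.813 and 0.660). The astrocyte marker sum was 378 and 393 FPKM with EGFP, 404 and 393 with CCNY-WT, and 311 and 381 with CCNY-shRNA, with overlap between EGFP and CCNY-shRNA. In CCNY-shRNA, 3 of 8 tested astrocyte markers were lower at an unadjusted p under 0.05 and 0 higher, against the same 9.36% and 9.2%. Past the adjusted threshold in limma there were 0. The oligodendrocyte lineage sum was 56.0 and 55.0 FPKM with EGFP, 57.7 and 52.9 with CCNY-WT, and 49.5 and 47.5 with CCNY-shRNA. Of the 6 tested markers of this lineage, 1 was lower in CCNY-shRNA at an unadjusted p under 0.05 and 0 higher, and 0 passed the adjusted threshold in limma. The shares of all tested genes at that level were again 9.36% and 9.2%. Sox10 was listed at 0 in every library. The neuron marker sums overlapped between EGFP and CCNY-shRNA. Of the 11 neuron markers tested, 2 were lower in CCNY-shRNA at an unadjusted p under 0.05 and 1 higher, against the same 9.36% and 9.2%. Of these neuron markers 0 passed the adjusted threshold in limma. In bulk RNA, fewer cells of a type and less RNA per cell cannot be told apart, and the part of these cell types in the levels of Grm4, Grm5 and Grm7 was not tested.

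The partners of the receptors were taken from 6 lists, with 69 genes tested: transduction by group I, transduction by groups II and III, receptor-binding proteins, desensitization, glutamate handling, and effectors of receptor-dependent long-term depression. In CCNY-shRNA against EGFP, 1 of the 69 passed the adjusted threshold, against 0.746% of all tested genes. There 15 had an unadjusted p under 0.05 (12 lower, 3 higher), which is 21.7%, against 18.6% of all tested genes. In CCNY-WT, 0 passed and 9 had an unadjusted p under 0.05, or 13.0%, against 6.83% of all tested genes, 5 of them lower and 4 higher. In CCNY-shRNA against CCNY-WT, 1 passed, against 0.216% of all tested genes, and 12 had an unadjusted p under 0.05, or 17.4%, against 12.2%.

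Among the genes of group I transduction, which carry the signal of the Grm5 product, 1 of 13 fell past the adjusted threshold in CCNY-shRNA and 0 rose. It was Prkca, the alpha isoform of the diacylglycerol-activated protein kinase C, at 90.0 FPKM in both EGFP libraries, 82.9 and 87.0 with CCNY-WT, and 62.5 and 59.9 with CCNY-shRNA (log2 change -0.56 ± 0.0556 SE, limma adjusted p = 0.0112). It was also lower in CCNY-shRNA than in CCNY-WT (log2 difference -0.47, limma adjusted p = 0.0252), and neither call held with any 1 library left out (limma adjusted p of 0.0767 to 0.224 and of 0.106 to 0.486). At an unadjusted p under 0.05, 5 of the 13 were lower and 1 higher, against 9.36% and 9.2% of all tested genes. The higher gene was Gna11, an alpha subunit of the Gq family, at 48.3 and 47.7 FPKM with EGFP, 50.1 and 54.8 with CCNY-WT, and 54.4 and 58.0 with CCNY-shRNA (log2 change 0.23, 95% confidence interval 0.07 to 0.38, limma adjusted p = 0.145). Gnaq, the Gq alpha subunit, was at 132 and 130 FPKM with EGFP against 133 and 138 with CCNY-shRNA (log2 change 0.04, limma adjusted p = 0.718), and Plcb1, a phospholipase C, had a log2 change of -0.09 (limma adjusted p = 0.545). Plcb4, another phospholipase C, had a log2 change of -0.35 with a wide interval of -0.83 to 0.13 (limma adjusted p = 0.404). Trpc5, of the same list, had log2 changes of -0.48 in CCNY-shRNA and -0.63 in CCNY-WT (limma adjusted p = 0.176 and 0.641). Gna11, Plcb4 and Trpc5 were named after their values were seen. The median log2 change of this list in CCNY-shRNA was -0.15.

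Of the 16 tested genes of group II and III transduction, 0 passed the adjusted threshold in limma and 2 were lower in CCNY-shRNA at an unadjusted p under 0.05, against 9.36% of all tested genes. These were Adcy1, a calcium-stimulated adenylyl cyclase, at 55.2 and 54.0 FPKM with EGFP against 50.5 and 46.9 with CCNY-shRNA, and Kcnj9, a subunit of G protein-gated potassium channels, at 25.7 and 26.3 FPKM with EGFP against 22.5 and 22.9 with CCNY-shRNA (limma adjusted p = 0.248 and 0.264). The log2 changes of the 16 genes lay between -0.20 and 0.12, all smaller in size than that of Grm4.

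**Figure D4:**
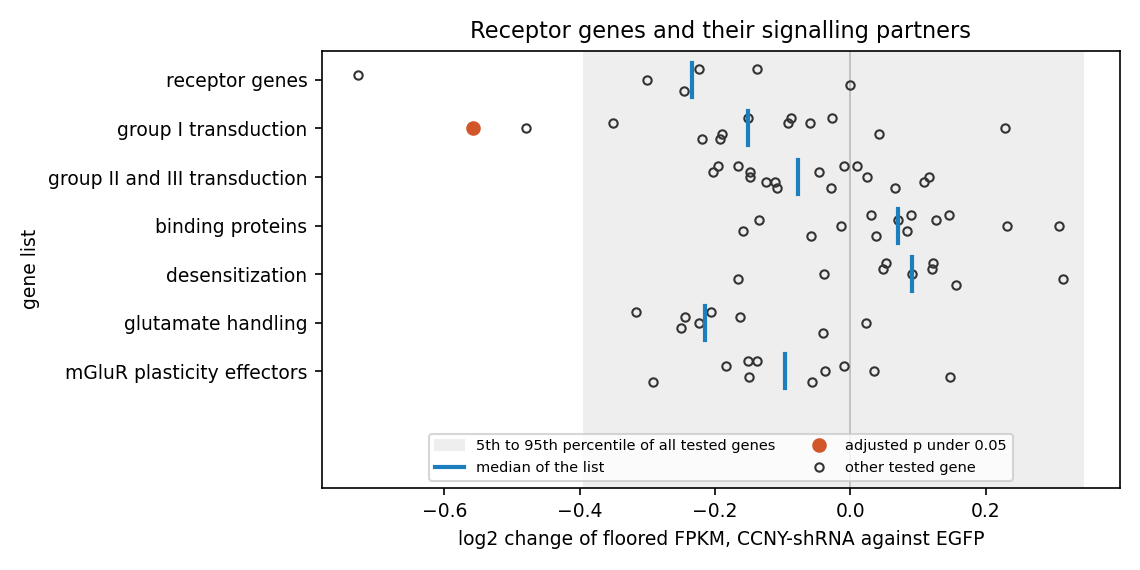
Log2 change of floored FPKM in CCNY-shRNA against EGFP (horizontal axis) for the tested receptor genes and the genes of the 6 lists, 1 circle a gene, with a blue bar at each median and grey from the 5th to the 95th percentile of all tested genes (-0.39 to 0.34). Prkca, filled, is the single gene past the adjusted threshold, and Grm4, at -0.73, is the point farthest to the left.

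The receptor-binding proteins had a median log2 change of 0.07 in CCNY-shRNA. At an unadjusted p under 0.05, 2 of 13 were higher and 0 lower, against 9.2% and 9.36% of all tested genes, and 0 passed the adjusted threshold in limma. Shank3, a postsynaptic scaffold that Homer proteins tie to group I receptors, was at 46.4 and 46.3 FPKM with EGFP, 56.0 and 54.8 with CCNY-WT, and 55.4 and 53.3 with CCNY-shRNA, higher in both conditions (log2 change 0.26 in CCNY-WT and 0.23 in CCNY-shRNA, limma adjusted p = 0.507 and 0.0990). Calm3, a gene for calmodulin, which binds the tail of several receptors, was at 1348 and 1268 FPKM with EGFP against 1597 and 1639 with CCNY-shRNA (log2 change 0.31, limma adjusted p = 0.0992). Homer2 and Homer3, adaptors that bind the tail of group I receptors, had log2 changes of 0.07 and -0.01, and Elfn1, an adhesion protein that contacts group III receptors across the synapse, of -0.16, with limma adjusted p-values of 0.826, 0.961 and 0.424. Desensitization genes had a median log2 change of 0.09, and 0 of 9 had an unadjusted p under 0.05 in CCNY-shRNA, against 18.6% of all tested genes. The smallest p among them belonged to Arrb1, an arrestin, and Grk5, a receptor kinase, with log2 changes of 0.12 and 0.31 (limma adjusted p = 0.315 and 0.335).

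Glutamate handling genes had a median log2 change of -0.22 in CCNY-shRNA, with 3 of 8 lower at an unadjusted p under 0.05 against 9.36% of all tested genes, 0 higher, and 0 past the adjusted threshold in limma. Slc1a2, the main astrocytic glutamate transporter, was at 83.7 and 82.9 FPKM with EGFP, 86.7 and 78.1 with CCNY-WT, and 65.2 and 68.6 with CCNY-shRNA (log2 change -0.32, limma adjusted p = 0.0768). Slc1a2 and Slc1a3 of this list are also astrocyte markers. Of the 10 plasticity effectors, 0 passed the adjusted threshold in limma and 2 were lower at an unadjusted p under 0.05, against the same 9.36%. Fmr1, whose product represses translation downstream of group I receptors, was at 21.3 and 22.8 FPKM with EGFP against 17.9 and 18.1 with CCNY-shRNA, and Camk2a, a kinase subunit of the postsynaptic density, at 376 and 405 with EGFP against 361 and 327 with CCNY-shRNA (log2 changes -0.29 and -0.18, limma adjusted p = 0.148 and 0.214). Arc, an immediate early gene translated on group I receptor activation, was at 29.0 and 28.5 FPKM with EGFP against 28.9 and 23.6 with CCNY-shRNA, with overlap (limma adjusted p = 0.553).

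The genes most like each abundant receptor gene over the 6 libraries were sought among 8053 other tested genes with a mean FPKM of at least 5, by Pearson's r of the log2 values. With 6 libraries in 3 conditions a high r is common, and 354, 260 and 305 genes exceeded 0.9 for Grm4, Grm5 and Grm7. For Grm4 the nearest was Nell2, a secreted glycoprotein of neurons, with r = 0.999 and FPKM values of 599 and 602 with EGFP, 565 and 555 with CCNY-WT, and 512 and 511 with CCNY-shRNA. Its order of conditions was that of Grm4, with a smaller change. Tmem168 (r = 0.992) came next. Grm5 was matched most closely by Nipa1, B3gat1 and Brinp2 (r = 0.994, 0.994 and 0.991), and Grm7 by Lrrc4, Kcna4 and Scd2 (r = 0.996, 0.995 and 0.994). The receptor genes matched each other less closely, with r = 0.906 between Grm5 and Grm7, 0.895 between Grm4 and Grm7, and 0.882 between Grm4 and Grm5.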

How the data were processed

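RNA-seq of 6 libraries was used. The authors mapped 150-bp paired-end reads to the rat genome rn4 with TopHat 2 and deposited 1 FPKM value per gene and library, calculated with Cufflinks (2.2.1 in the submitters' processing notes). The annotation, any scaling between libraries and whether counting used strand are not given in the sources used here, so antisense reads cannot be told apart, and the depth of each library is unknown. An FPKM of a weak gene rests on few fragments, which limits Grm2, Grm6 and Grm8 most.

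From these values, FPKM floored to 1 was log2-transformed, as in the study's methods, and fitted with limma 3.58.1 (R 4.3.3; moderated with a mean-dependent prior, eBayes trend) over the 3 conditions, with Benjamini-Hochberg adjustment over 10188 genes and a threshold of 0.05. The floor understates changes of genes near 1. The fit was tested on simulated data, in which the changes were larger than any seen for the receptor genes. How well it finds changes of their size was not tested. Relative depth was read from 524 genes under an FPKM of 0.3 and above 0 in 4 or more libraries, of which 96.0% had values in whole steps (tolerance 0.02), against 0.191% after a random shift. Python 3.11.15, pandas 2.3.3, numpy 2.4.6 and matplotlib 3.10.9 were used.

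Members and lists were chosen with earlier results of these data known. Named genes are the 7 receptor genes, Ccny and list genes past the threshold. In each list the 2 tested genes with the smallest p in CCNY-shRNA against EGFP were also named. Homer2, Homer3, Gnaq, Plcb1, Arc and Elfn1 were named by role. By pattern, the 3 genes most like each receptor gene with a mean FPKM of at least 5 were named. Marker genes such as Gad2, Gad1 and Calb2, and the list genes Gna11, Plcb4 and Trpc5, were named outside these rules. Of 77 list genes, 73 were used and 69 tested. Alternatives covered the log scale, the filter, scaling, the estimate of the spread, the samples in the fit, a replicate block and leaving out each library. Those of Gad2 were chosen after seeing the data. RefSeq (a later build) served for names only. The study selected genes with cuffdiff, and those calls were not used here. Some genes that these rules name are not reported here.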

Additional observations from a re-analysis of the deposited data

How the results depend on the processing

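Each of 16 alternatives, 6 of them leaving out 1 library, kept the direction of Grm4, Grm5 and Grm7 in all 3 comparisons. The count of receptor genes past the adjusted threshold stayed at 0 in CCNY-WT against EGFP and in CCNY-shRNA against CCNY-WT. In CCNY-shRNA against EGFP it rose to 1 (Grm4) with log2(FPKM + 0.1), where its log2 change was -0.72, and with the filter on mean FPKM. By the size limits, the count of receptor genes beyond the lower limit in CCNY-WT went from 1 to 0 with log2(FPKM + 1) or log2(FPKM + 0.1), and that beyond the upper limit from 0 to 1 (Grm6) with the latter.

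Grm3 and Grm8 changed sign. With libraries left out, the log2 change in CCNY-WT against EGFP ranged from -0.35 to 0.15 for Grm3 and from -0.57 to 0.33 for Grm8, and in CCNY-shRNA against CCNY-WT from -0.28 to 0.21 and from -0.55 to 0.34. Quantile normalization gave 0.049 for Grm3 in the latter. In CCNY-shRNA against EGFP, leaving out 1 library gave -0.046 to 0.19 for Homer2, -0.17 to 0.15 for Homer3 and -0.29 to 0.011 for Arc.

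Of all genes tested, 76 passed in CCNY-shRNA against EGFP, but 2 with no filter, 1 with eBayes without a trend, 1 with only the 4 libraries compared, 39 with the replicate block and 1 to 7 with 1 library left out. In CCNY-shRNA against CCNY-WT, 22 passed, but 2 with no filter, 1 without a trend, 1 with only the libraries compared and 1 to 8 with 1 library left out. In CCNY-WT against EGFP, 1 passed, but 3 on the log2(FPKM + 1) scale, 3 when genes were filtered by mean FPKM, and 0 to 1 with 1 library left out. The list genes past the threshold, 1 in each of the comparisons with CCNY-shRNA, went to 0 with no filter, without a trend, with only the libraries compared and with any library left out. A fit on fewer libraries has fewer residual degrees of freedom. Where a condition keeps 1 library, its spread is assumed to be that of the others. Why the counts fell, with libraries left out or with all of them kept, was not tested.

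Replicate numbers were shared between conditions, but same-numbered libraries deviated together only weakly (correlations of 0.0377 to 0.0538), so the replicate block stayed an alternative. With it 0 receptor genes passed the adjusted threshold in each comparison, as without it, and the adjusted p of Grm4 in CCNY-shRNA was 0.0765. In CCNY-WT against EGFP the count with an unadjusted p below 0.05 went from 1 (Grm4) to 0. The depth is unknown, and the intervals given here do not take it into account. Those of Grm6 and Grm8, near an FPKM of 1, were wide and came from floored values. Grm2 was not tested and has no interval.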
